A study of Mus musculus with 44 samples.

Results

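Cathepsins are the main proteases of the lysosome, and 10 of their genes were followed here through every RNA-seq library of the series. The members were Ctsa, Ctsb, Ctsc, Ctsd, Ctse, Ctsf, Ctsh, Ctsl, Ctss and Ctsz, taken by gene symbol and not by measured value from the 24940 genes that each of the 4 count tables listed. All 10 were listed with the same transcript in the 4 tables, and all 10 passed the filter on low counts in each. Transcripts of the 10 genes took between 1.86% and 5.78% of all gene counts in a library.

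Cathepsins are made as inactive proenzymes, carried to late endosomes and lysosomes by mannose 6-phosphate receptors and sortilin, and activated there by cleavage in the acid lumen. Most are cysteine proteases (Ctsb, Ctsc, Ctsf, Ctsh, Ctsl, Ctss and Ctsz), Ctsd and Ctse are aspartic proteases, and Ctsa is a serine carboxypeptidase that also protects the lysosomal enzymes neuraminidase 1 and beta-galactosidase. In macrophages they degrade engulfed and internal protein and trim the invariant chain and antigens for presentation by MHC class II. Cystatins and stefins hold the cysteine cathepsins in check, and the MiT/TFE transcription factors (Tfeb, Tfec, Tfe3 and Mitf) are known regulators of lysosomal genes.

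The libraries were made from poly(A) RNA of mouse bone marrow-derived macrophages (BMDMs) and fell into 22 groups of 2. The marrow came from young adult C57BL/6 mice. In the NCoR table, BMDMs with floxed NCoR alleles (genotype NCoR flox/flox, called WT) and BMDMs that also carried LysMCre (NKO), in which Cre is expressed from the lysozyme 2 locus in myeloid cells, received vehicle (Veh), KLA, PolyIC, IFNb or IL4 for 6 h, or RANKL for 12 h. KLA is Kdo2 lipid A, a TLR4 agonist, poly I:C is a double-stranded RNA analog that activates TLR3, IFNb is interferon beta, and RANKL is the cytokine that drives osteoclast differentiation. In the RGFP966 table, Wild type BMDMs had vehicle, KLA, or KLA with RGFP966, an inhibitor of the histone deacetylase HDAC3. Vehicle or KLA lasted 6 h. The TBK1i table held Wild type BMDMs with DMSO and vehicle, DMSO and KLA, or KLA after blockade of the kinase TBK1 (TBK1i). Vehicle or KLA again lasted 6 h. Per the methods of the paper, both inhibitors were added with the serum starvation, 12 h before the ligand. The Pgc1b table held Pgc1b flox/flox BMDMs without or with LysMCre, given vehicle or KLA for 6 h. Both genotypes of the NCoR and Pgc1b tables therefore carried floxed alleles, and no group carried LysMCre alone. The labels gave no sex of the mice, and nothing stated that the 2 libraries of a group came from separate animals or cultures, so p-values measure only the spread between these libraries, which may be technical.

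Depth ranged from 8.32 M to 16.8 M gene counts per library (M, 1000000 counts). Ncor1 was called lower in NKO than in WT in 6 of 6 conditions, with log2 fold changes of -1.78 to -1.41. Ppargc1b was not lower in the libraries labelled Pgc1b flox/flox, LysMCre (3.58 ± 0.241 against 3.63 ± 1.06 CPM with vehicle; SD, n = 2; CPM are counts per 1000000 after TMM scaling). Lyz2, the host gene of LysMCre, was lower in them (log2 fold change -0.90 ± 0.05 SE, adjusted p = 3.41e-14). The paper calls the Pgc1b Cre cells a knockout and ran an immunoblot of PGC1β, the protein of Ppargc1b. RNA counts over a whole transcript do not measure that protein. Library names carried a date stamp. WT_KLA, NKO_KLA and the RANKL libraries each had a stamp of their own, whereas vehicle, PolyIC, IFNb and IL4 libraries of both genotypes shared 1. KLA and RANKL against vehicle, and NKO against WT with KLA, therefore cannot be told apart from the stamp. RANKL libraries were of 12 h and vehicle libraries of 6 h, so RANKL against vehicle cannot be told apart from time either. Within each of the other 3 tables, vehicle and the KLA control shared 1 stamp. The column names of the 4 RANKL libraries read Osteoclast, where the sample records say BMDM. Of the marker lists, 8 neutrophil and granulocyte precursor genes summed to between 848 and 1129 CPM in those 4 libraries and to at most 7.67 CPM in the other 40. All 8 had counts in the RANKL libraries, and between 2 and 8 of them were at 0 in the others. In the same order, 5 stromal genes summed to between 195 and 326 CPM against at most 131. The 6 macrophage markers were present throughout (4161 to 10295 CPM), and within the NCoR table they summed to 7499 and 8045 CPM in WT_Veh and 4203 and 4161 CPM in WT_RANKL, while 6 osteoclast genes summed to 112 to 141 CPM with RANKL and 158 to 2080 elsewhere. The mast cell, B cell, T and NK cell, dendritic cell and erythroid lists summed to at most 13.7 CPM in any library. In bulk RNA, fewer cells of a type and less RNA per cell cannot be told apart.

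Most of the genes lay apart from each other in the mm10 genome. The cysteine cathepsin genes spanned chr14:63122462-63145923 (Ctsb, + strand), chr7:88278085-88315861 (Ctsc, +), chr19:4855129-4860912 (Ctsf, +), chr9:90054267-90076095 (Ctsh, +), chr13:64361890-64370520 (Ctsl, -), chr3:95526786-95556405 (Ctss, +) and chr2:174427494-174439039 (Ctsz, -). The aspartic protease genes spanned chr7:142375916-142387870 (Ctsd, -) and chr1:131638314-131675507 (Ctse, +), and Ctsa spanned chr2:164833773-164841032 (+). Counts were taken over the exons of a single transcript per gene. For 3 members a gene on the opposite strand overlapped. Pltp shared 495 of the 4715 exonic bases annotated for Ctsa, Fdft1 shared 774 of 6051 for Ctsb, and Nelfcd shared 10 of 1441 for Ctsz. The libraries mark strand with dUTP, and the counting took strand into account.

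RefSeq promoter sequences (GRCm38.p6, the 250 bases before the annotated start) were held for 7 of the 10 members, as 8 entries, and not for Ctsb, Ctse or Ctsh. Those of 4 genes are shown, the members called with KLA in WT for which an entry existed, Ctsc and Ctsz called higher (Ctsz at -0.13 and not called without TMM) and Ctsd and Ctsl called lower. They read 5′ to 3′ on the strand of the gene, and capitals mark a match to a searched motif.
Ctsc, chr7:88277835-88278084 (+): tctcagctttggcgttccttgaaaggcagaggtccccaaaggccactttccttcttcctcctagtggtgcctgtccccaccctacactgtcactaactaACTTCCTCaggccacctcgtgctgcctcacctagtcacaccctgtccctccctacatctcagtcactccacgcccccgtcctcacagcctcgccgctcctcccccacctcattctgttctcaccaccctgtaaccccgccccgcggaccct
Ctsz, chr2:174439040-174439289 (-): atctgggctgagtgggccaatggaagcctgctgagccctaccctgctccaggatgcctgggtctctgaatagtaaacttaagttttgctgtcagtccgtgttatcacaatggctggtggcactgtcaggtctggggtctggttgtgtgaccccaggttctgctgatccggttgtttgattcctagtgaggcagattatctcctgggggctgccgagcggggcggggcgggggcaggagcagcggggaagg
Ctsd, chr7:142387828-142388077 (-): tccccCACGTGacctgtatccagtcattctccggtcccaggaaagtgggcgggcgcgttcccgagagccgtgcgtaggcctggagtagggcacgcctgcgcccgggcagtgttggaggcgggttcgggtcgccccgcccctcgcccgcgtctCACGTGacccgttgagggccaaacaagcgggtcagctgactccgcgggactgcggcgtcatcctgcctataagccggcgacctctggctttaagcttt
Ctsl, chr13:64370521-64370770 (-): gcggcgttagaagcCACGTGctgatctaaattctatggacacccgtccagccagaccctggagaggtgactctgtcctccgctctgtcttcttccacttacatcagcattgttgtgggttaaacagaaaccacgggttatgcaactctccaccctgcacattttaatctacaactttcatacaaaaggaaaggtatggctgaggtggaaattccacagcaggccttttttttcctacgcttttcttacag
The motifs searched, on both strands, were CACGTG, the palindromic E-box that MiT/TFE factors bind, GAAANNGAA of interferon regulatory factors, TGANTCA of AP-1, and GAGGAAGT of PU.1. CACGTG occurred 2 times before Ctsd, with first bases 245 and 98 bases before the start, and in single copies before Ctsl (236), Ctsf (79) and in 1 of the 2 Ctsa entries (12). Starts here are those of the promoter annotation. For Ctsd and Ctsf that start lies inside the span of the counted transcript, so the motifs lie nearer to the start of that transcript. The Ctsc sequence held GAGGAAGT on its reverse strand, 151 bases before the start, and Ctss held GAAANNGAA at 21 bases. No promoter of a member held TGANTCA, and the Ctsz sequence held none of the 4 motifs in this window. Among all 32851 promoters of the same length, 6.02% held CACGTG, 7.13% GAAANNGAA, 6.75% TGANTCA and 2.44% GAGGAAGT. These matches describe letters and show no binding.

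Per kilobase of transcript, levels of the 10 genes in WT_Veh covered more than 4 orders of magnitude. Ctsd was the most abundant at 7734 ± 650 CPM per kilobase (SD, n = 2), followed by Ctsb at 3754 ± 62.1 and Ctss, the main invariant chain protease of macrophages, at 2908 ± 28.7. Ctsz, Ctsa and Ctsl formed a middle tier at 656 ± 1.74, 545 ± 5.49 and 514 ± 51.1 CPM per kilobase. Ctsh, an aminopeptidase, stood at 129 ± 0.110. Ctsc was near the bottom in resting cells at 16.1 ± 8.09, above Ctsf at 11.4 ± 0.699 and Ctse at 0.309 ± 0.0702. Ctsd ranked at the top in 20 of 22 groups and Ctss in the other 2, KLA and RGFP966_KLA of the RGFP966 table, and Ctse was lowest in all 22. Ctsc moved between rank 6 and rank 9 of 10 and Ctsl between rank 4 and rank 7, and each of the other members by at most 2 places. Ctse gave between 1 and 40 counts per library, so its values carry large counting error.

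**Figure D1:**
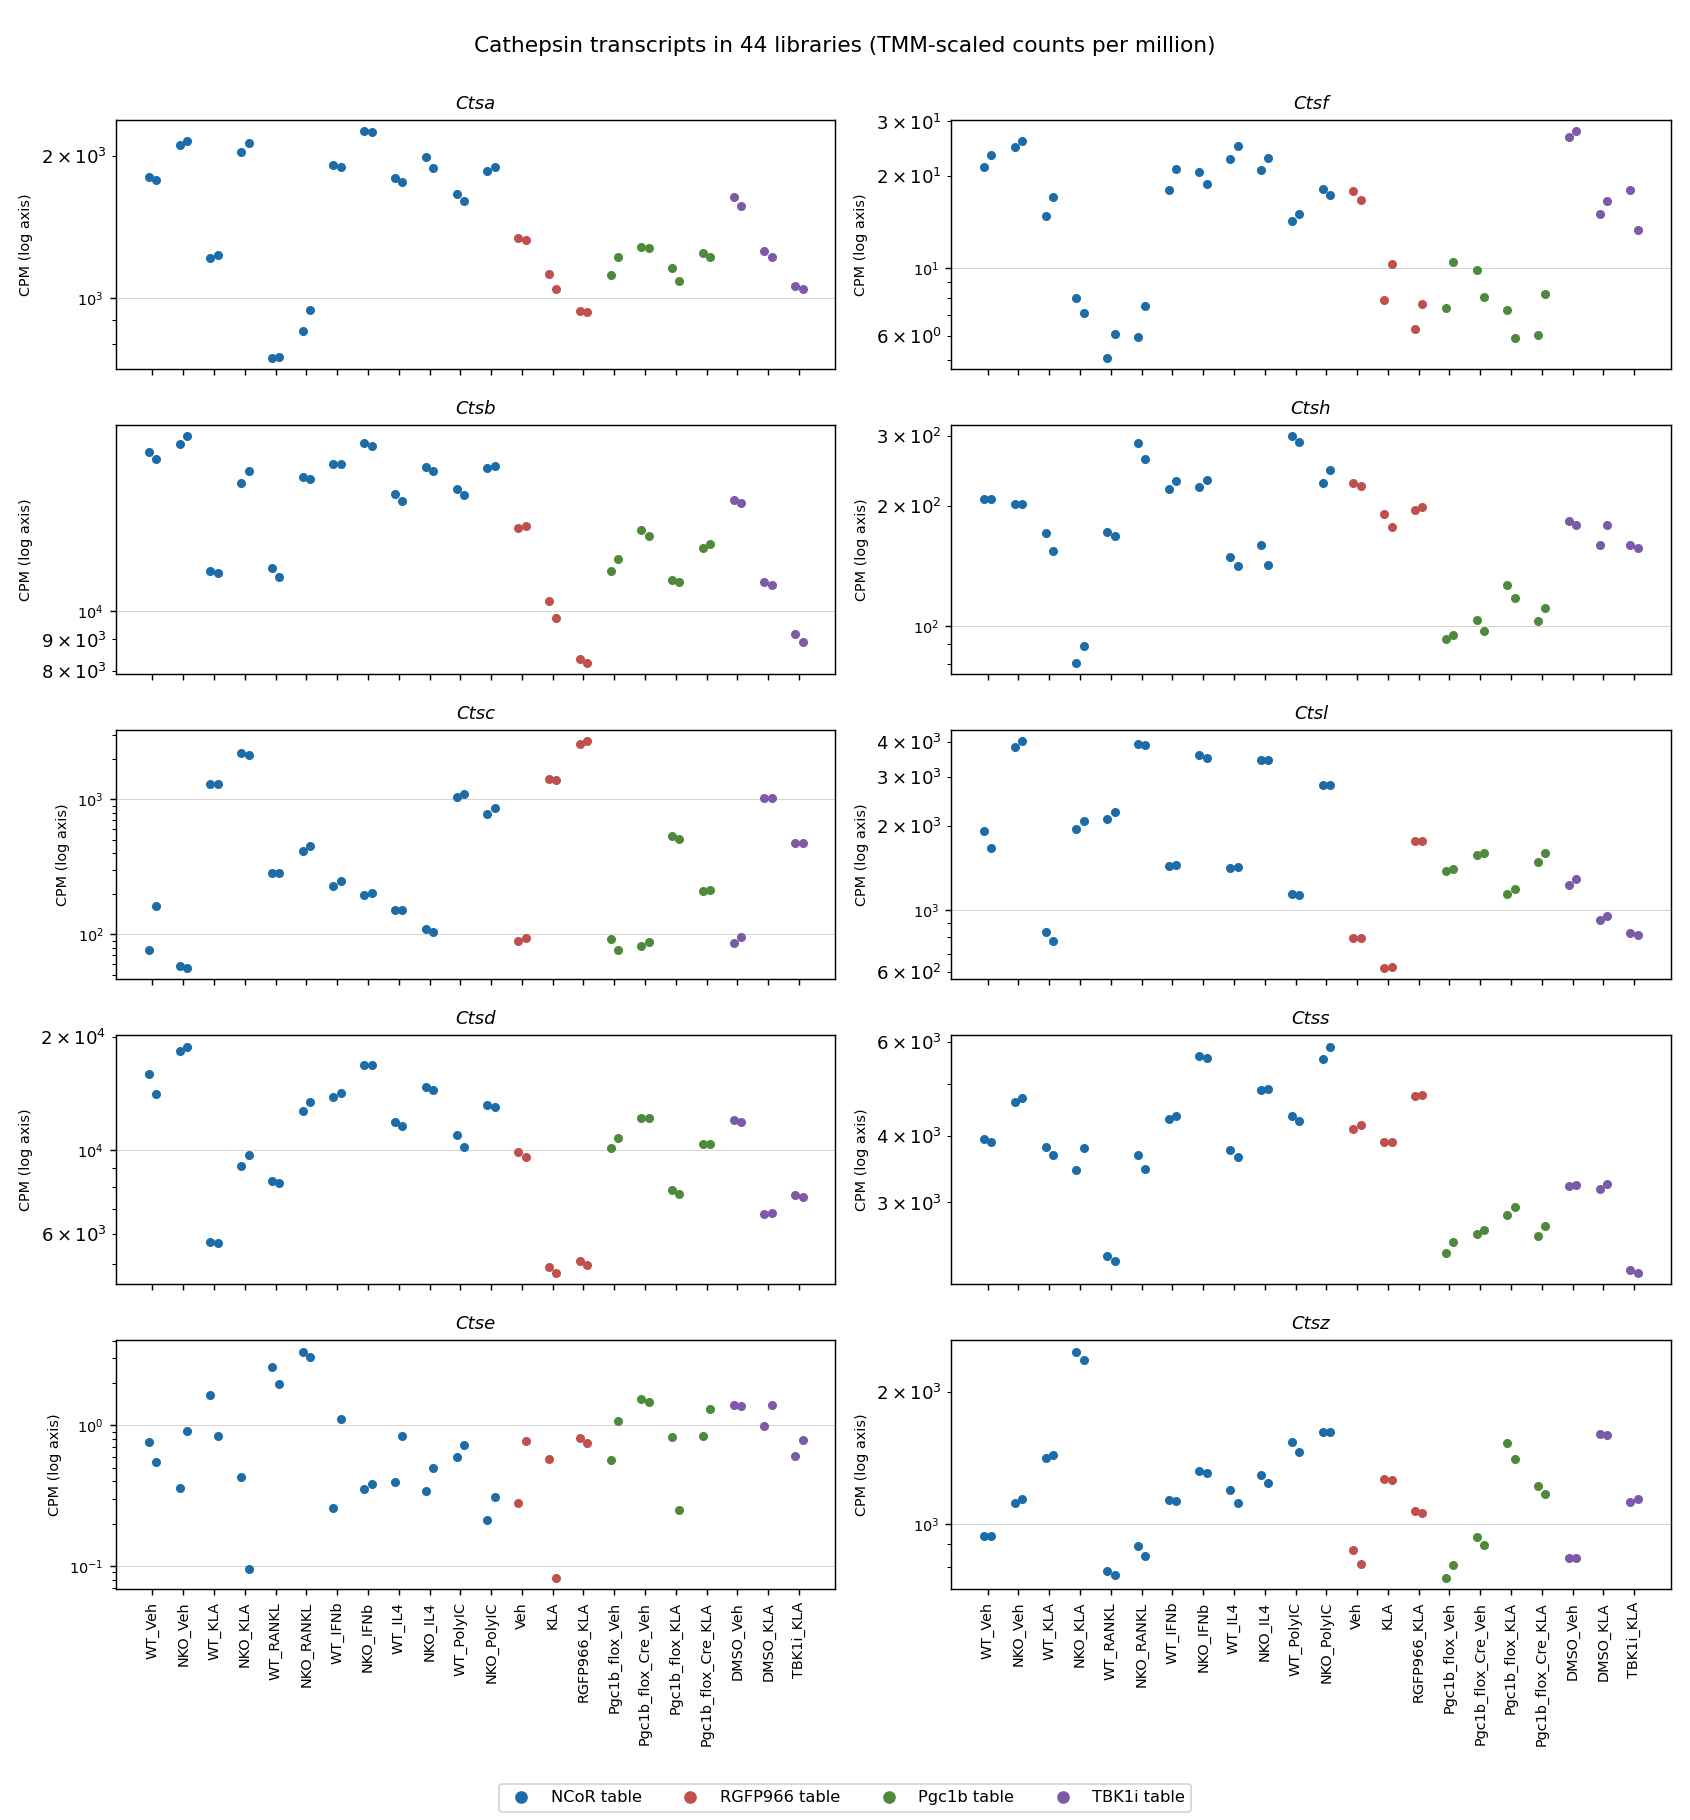
CPM of the 10 cathepsin transcripts (log axes, one panel per gene) in the 44 libraries, 2 points per group, coloured by table; CPM were scaled within each table by TMM. The 2 libraries of a group nearly coincide for most genes, with a largest ratio between them of 1.15 for Ctsl and 1.06 for Ctsb, but of 2.11 for Ctsc in WT_Veh and 6.96 for Ctse in KLA.

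The response to TLR4 was compared between KLA and vehicle in WT BMDMs and in the controls of the 3 other tables. Ctsc, which activates granule serine proteases by removing dipeptides, rose in 4 of 4 tables. In WT_Veh it stood at 77.2 and 162 CPM and in WT_KLA at 1293 and 1308 CPM, a 10.9-fold rise (log2 fold change 3.44 ± 0.22 SE, adjusted p = 4.99e-09, edgeR). The log2 fold change of Ctsc was 3.93 ± 0.06 in the RGFP966 table, 2.62 ± 0.08 in Pgc1b flox/flox cells and 3.4995 ± 0.0441 in the TBK1i table. Ctsz, a carboxypeptidase, was the only other member called higher in the 4 tables (log2 fold changes 0.59 to 0.94), but with library totals in place of TMM its change turned to -0.13 in WT and -0.18 in the RGFP966 table and lost its call in the other 2 tables. On the TMM scale the call was also lost with a filter of 5 CPM in WT (0.58) and, in the RGFP966 table, with 4 further settings, among them no filter (0.52) and leaving out Veh replicate 2 (0.54). Ctsz went from 937 and 941 CPM in WT_Veh to 1416 and 1437 CPM in WT_KLA, so both treated libraries lay above both vehicle libraries on the TMM scale. Without TMM, the median of all genes moved by -0.73 in WT_KLA against vehicle, and by -0.77, -0.69 and -0.78 in the RGFP966, Pgc1b and TBK1i tables.

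Ctsd, Ctsl and Ctsb were called lower with KLA in WT. Ctsd fell from 15919 and 14134 CPM in WT_Veh to 5723 and 5673 CPM in WT_KLA, 2.64-fold lower (log2 fold change -1.40 ± 0.05 SE, adjusted p = 1.3e-34), and was called lower in 3 of 4 tables. In Pgc1b flox/flox cells its change was -0.43 ± 0.05, short of the 1.5-fold limit. Ctsl, a cysteine endopeptidase, fell from 1924 and 1671 to 834 and 776 CPM in WT (log2 fold change -1.16 ± 0.05, adjusted p = 1.63e-28). In the other 3 tables Ctsl was not called, at -0.35, -0.26 and -0.43, although both KLA libraries lay below both vehicle libraries in each. The 5 stromal markers summed to 97.1 and 88.1 CPM in WT_Veh and to 0.819 and 1.33 CPM in WT_KLA, so they were lower together with Ctsl there, and their part was not tested. In the vehicle and KLA controls they summed to at most 2.199 CPM in the RGFP966 table and 1.87 CPM in the Pgc1b table, and stood at 50.8 and 52.2 against 48.7 and 46.2 CPM in the TBK1i table. Ctsb fell by 0.62 on the log2 scale in WT (adjusted p = 5.51e-20), a call that was lost with DESeq2 (-0.55). Ctsf was called lower in the RGFP966 table (-0.92 ± 0.14) and the TBK1i table (-0.79 ± 0.12), and stood at -0.49 and -0.44 in the other 2 tables. Ctsa lay between -0.55 and -0.06, Ctsh between -0.36 and 0.38 and Ctse between -0.72 and 0.92 over the 4 tables, with no call. Ctss stood at 3953 and 3898 CPM in WT_Veh and 3820 and 3689 CPM in WT_KLA, a log2 fold change of -0.06 ± 0.05 (adjusted p = 0.221). Ctss depended on the scaling as well, and with library totals it was called lower in WT (-0.79) and in the RGFP966 (-0.86) and TBK1i (-0.79) tables.

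A call needed an adjusted p under 0.05 and more than a 1.5-fold difference. Counted over the members, 2 were called higher and 3 lower with KLA in WT, beside 25.4% and 32.3% of all genes tested. The counts were 2 and 2 in the RGFP966 table (27.9% and 32.2% of all genes), 2 higher in Pgc1b flox/flox cells (22.8%), and 2 and 2 in the TBK1i table (29.6% and 29.3%). With library totals in place of TMM, 1 member was called higher and 7 lower in WT, beside 13.8% and 54.8% of all genes. On that scale the counts were 1 and 7 in the RGFP966 table (14.7% and 57.5%), 1 and 5 in Pgc1b flox/flox cells (12.2% and 53.7%), and 1 and 8 in the TBK1i table (14.5% and 55.1%). The members' median log2 fold change in WT was -0.42, beside -0.14 over all genes. As a share of all gene counts, the 10 genes went from 4.97% in WT_Veh to 1.87% in WT_KLA. The same share fell from 4.36% to 1.94%, from 3.49% to 2.00% and from 4.50% to 2.00% in the RGFP966, Pgc1b and TBK1i tables. These shares are of library totals, and without TMM the median of all genes itself moved by -0.73 in WT and by -0.77, -0.69 and -0.78 in those tables. With TMM the members' medians there were -0.32, -0.07 and -0.29, beside -0.07, -0.05 and 0.018 over all genes.

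**Figure D2:**
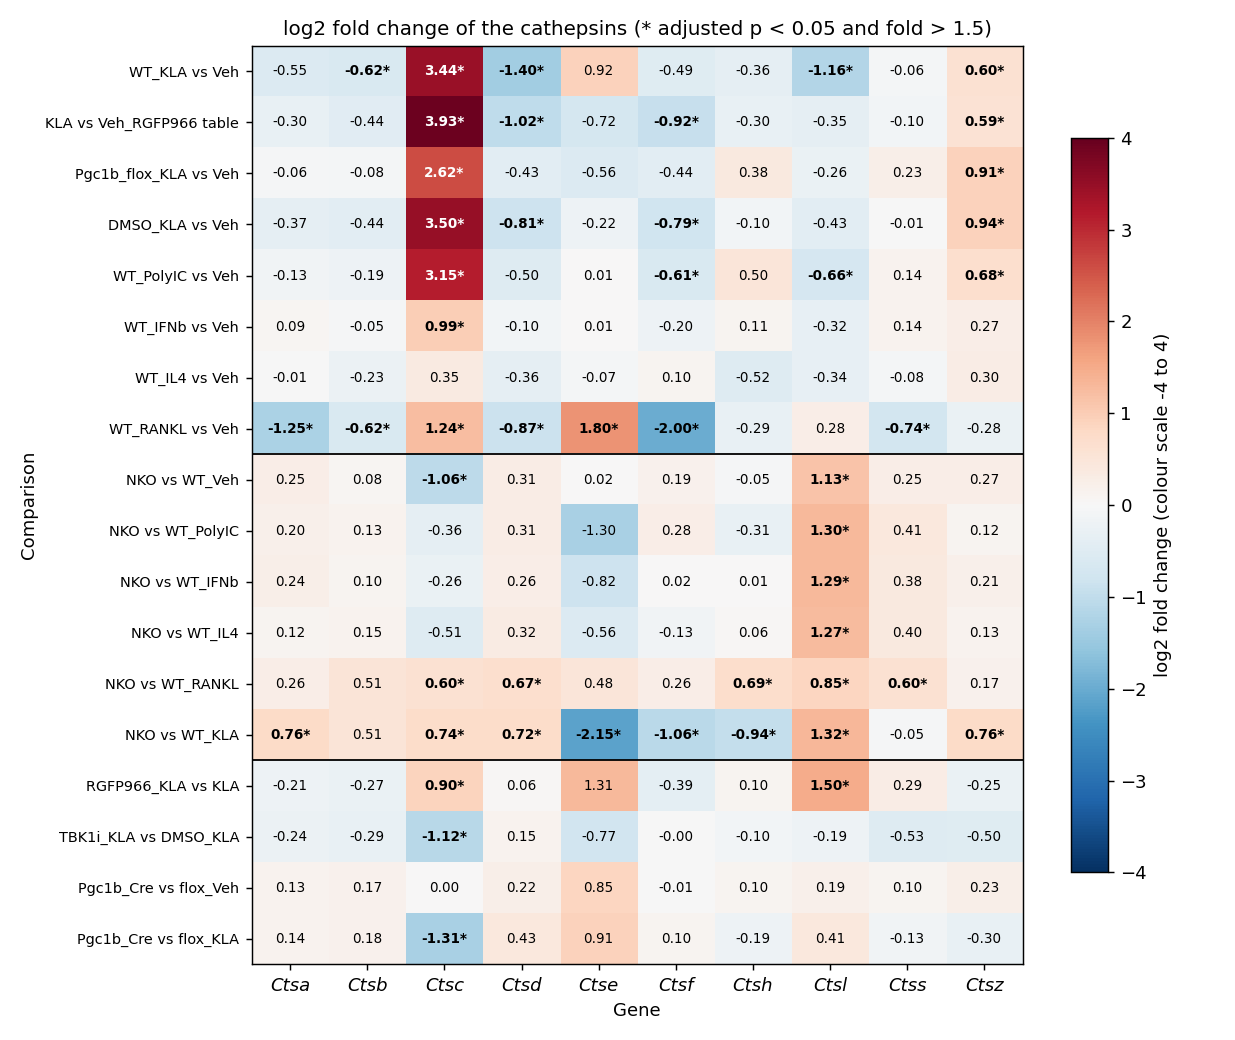
log2 fold change of each cathepsin (columns) in 18 comparisons (rows), with a colour scale from -4 to 4; an asterisk marks adjusted p below 0.05 and a fold above 1.5. Ctsc is the darkest red column under KLA and PolyIC, Ctsl is called higher in the 6 NKO rows, and the Ctsz rises with KLA depend on the scaling, since without TMM they turn to -0.13 and -0.18 in WT and the RGFP966 table.

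Poly I:C, interferon beta and IL4 libraries shared the date stamp of their vehicle libraries. With PolyIC, Ctsc rose to 1035 and 1091 CPM in WT (log2 fold change 3.15 ± 0.22 SE, adjusted p = 1.41e-08), 8.87-fold above WT_Veh. Ctsz was called higher at 0.68 ± 0.05, a call lost with library totals (0.03). Ctsl fell by 0.66 on the log2 scale (adjusted p = 1.63e-17), with 1141 and 1133 CPM, and by 0.56, short of the limit, without WT_Veh replicate 1. Ctsf fell by 0.61 (adjusted p = 2.51e-05), from 310 and 340 counts to 119 and 125, with a call that was lost under DESeq2 (-0.57). Ctsd stood at -0.50 ± 0.05 (adjusted p = 2.56e-14), short of the limit, and at -0.59, past it, without WT_Veh replicate 2. Ctsh lay as far on the other side (0.50 ± 0.06), and Ctsa, Ctsb, Ctse and Ctss differed by at most 0.19 in either direction, with no call. The count was thus 2 higher and 2 lower, beside 22.2% and 25.0% of all genes, and 1 higher and 5 lower with library totals, beside 13.1% and 51.7%.

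With IFNb, 1 member was called, beside 4.09% of all genes called higher. Ctsc stood at 229 and 248 CPM against 77.2 and 162 with vehicle (log2 fold change 0.99 ± 0.21, adjusted p = 0.0035). Both treated libraries lay above both vehicle libraries, but the change was 0.56 without WT_Veh replicate 1, and the adjusted p was 0.333 when only these 4 libraries were fitted. The other 9 members differed by at most 0.32 on the log2 scale. With IL4, edgeR and DESeq2 called 0 members, beside 13.1% of all genes called in either direction. Without the fold limit, 5 members had an adjusted p below 0.05 in edgeR. Ctsh lay the farthest of them from 0 at -0.52 ± 0.06 (208 and 208 CPM to 149 and 141). Ctsc stood at 153 and 152 CPM with IL4, inside the range of its vehicle libraries, and its change was 0.98 without WT_Veh replicate 2 and -0.09 without replicate 1.

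By mean CPM, RANKL-treated WT cells were the lowest group of the NCoR table for 5 of the 10 transcripts, Ctsa, Ctsb, Ctsf, Ctss and Ctsz. Their libraries overlapped those of WT_KLA for Ctsb and those of NKO_RANKL for Ctsf. The share of all genes that were lowest in this group was not computed. Ctsa fell from 1804 and 1778 to 750 and 751 CPM (log2 fold change -1.25 ± 0.05 SE, adjusted p = 4.69e-31). Ctsf fell from 21.3 and 23.3 to 5.10 and 6.07 CPM (-1.998 ± 0.134), the farthest fall of a member in any comparison of WT with vehicle. Ctsd, Ctss and Ctsb fell by 0.87, 0.74 and 0.62, with Ctsb at -0.54 and not called under library totals. Ctsc rose to 284 and 284 CPM (1.24 ± 0.21, adjusted p = 0.00015), with an adjusted p of 0.151 when only the compared groups were fitted. Ctse, an endosomal aspartic protease, rose from 11 and 8 counts to 40 and 28 counts (1.80 ± 0.45, adjusted p = 0.000392). Ctsh (-0.29), Ctsz (-0.28) and Ctsl (0.28) were not called. In all, 2 members were called higher and 5 lower, beside 24.1% and 19.8% of all genes, and the members' median was -0.46 beside 0.020 over all genes. The neutrophil, granulocyte precursor and stromal markers given above were higher in these libraries and the macrophage markers lower, and their part in the differences was not tested. RANKL and vehicle libraries also differed in date stamp and in time.

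Over the 12 groups of the NCoR table Ctsc had the widest range of the members, 5.23 on the log2 scale between NKO_Veh and NKO_KLA, and Ctsb the narrowest at 0.70. By mean CPM, Ctsc ran from NKO_KLA (2172 ± 34.1) through WT_KLA (1301 ± 10.4), WT_PolyIC (1063 ± 40.0) and NKO_PolyIC (825 ± 56.6) to NKO_RANKL (431 ± 25.0), WT_RANKL (284 ± 0.118), WT_IFNb (239 ± 13.2) and NKO_IFNb (199 ± 4.31). The lowest 4 groups were WT_IL4 (153), WT_Veh (120), NKO_IL4 (107) and NKO_Veh (57.7). WT_Veh overlapped both of its neighbours in that order because its 2 libraries stood at 77.2 and 162 CPM, and no other neighbours overlapped. Vehicle libraries of the other 3 tables lay between 77.3 and 95.8 CPM for Ctsc, each table being scaled on its own. Scaled jointly over the 44 libraries, they stood at 114 and 119.5 CPM (RGFP966 table), 96.3, 79.7, 85.4 and 90.9 CPM (Pgc1b table) and 93.9 and 105 CPM (TBK1i table), between the 78.1 and 164 CPM of the 2 WT_Veh libraries. Calls of Ctsc against WT_Veh are therefore given with and without the libraries of that group where they changed.

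**Figure D3:**
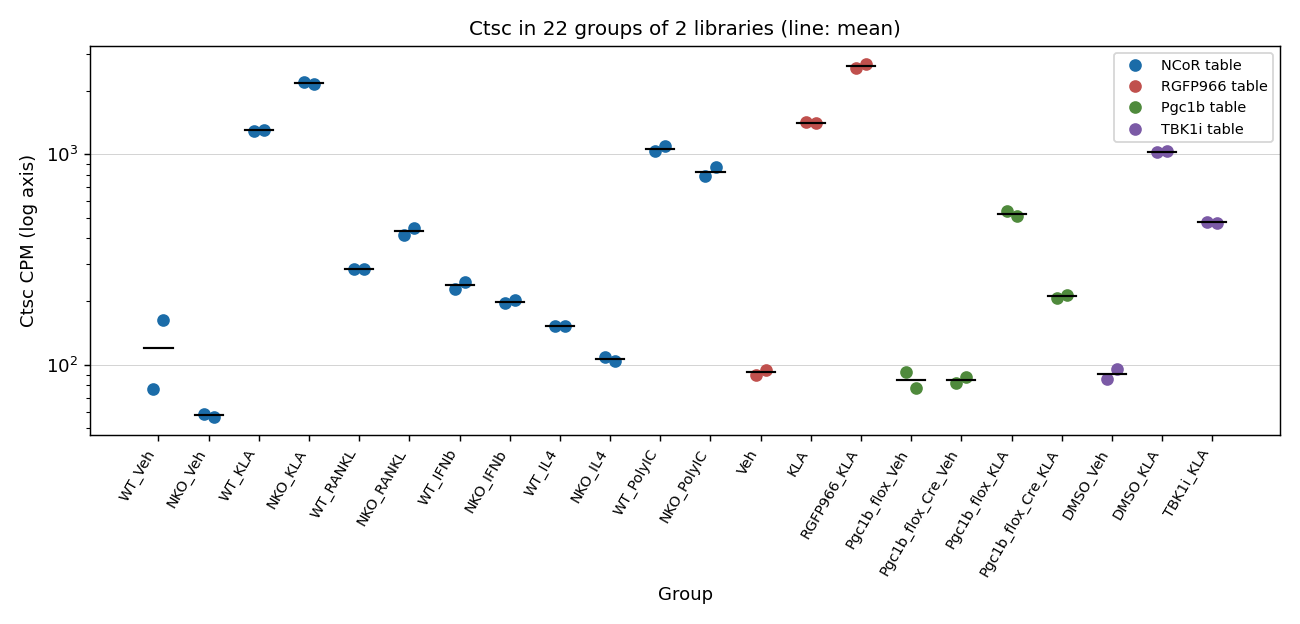
Ctsc CPM (log axis) in the 22 groups; points are the 2 libraries, lines the mean, and tables were scaled separately. KLA groups of the 4 tables sit far above their vehicle groups, and the 2 WT_Veh libraries lie apart at 77.2 and 162 CPM.

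Ctsl was the 1 member called higher in NKO than in WT in every condition. It stood at 1924 and 1671 CPM in WT_Veh and at 3842 and 4008 CPM in NKO_Veh, 2.18-fold higher (log2 fold change 1.13 ± 0.05 SE, adjusted p = 7.86e-26). With PolyIC the WT libraries gave 1141 and 1133 CPM and the NKO libraries 2805 and 2804 CPM (1.30 ± 0.05, adjusted p = 1.24e-28). With IFNb they gave 1434 and 1452 against 3573 and 3501 CPM (1.29 ± 0.05). Every NKO library lay above every WT library of its condition. With IL4 the WT libraries gave 1417 and 1431 CPM and the NKO libraries 3427 and 3449 CPM (1.27 ± 0.05, adjusted p = 1.85e-28). With RANKL the difference was smaller, 2112 and 2244 against 3921 and 3905 CPM (0.85 ± 0.05, adjusted p = 1.03e-20). With KLA it was 834 and 776 against 1950.4 and 2079 CPM (1.32 ± 0.05, adjusted p = 2.1e-30). All 6 calls of Ctsl held under each alternative setting that was run. NKO_KLA was the lowest of the NKO groups for Ctsl, and its 2 libraries still lay above those of WT_Veh. Ctsa, Ctsb, Ctsd and Ctsz also had both NKO libraries above both WT libraries in each of the 6 conditions, with a call in 1, 0, 2 and 1 of them. The share of all genes whose libraries lie apart in this way was not computed, for these or any other comparisons.

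**Figure D4:**
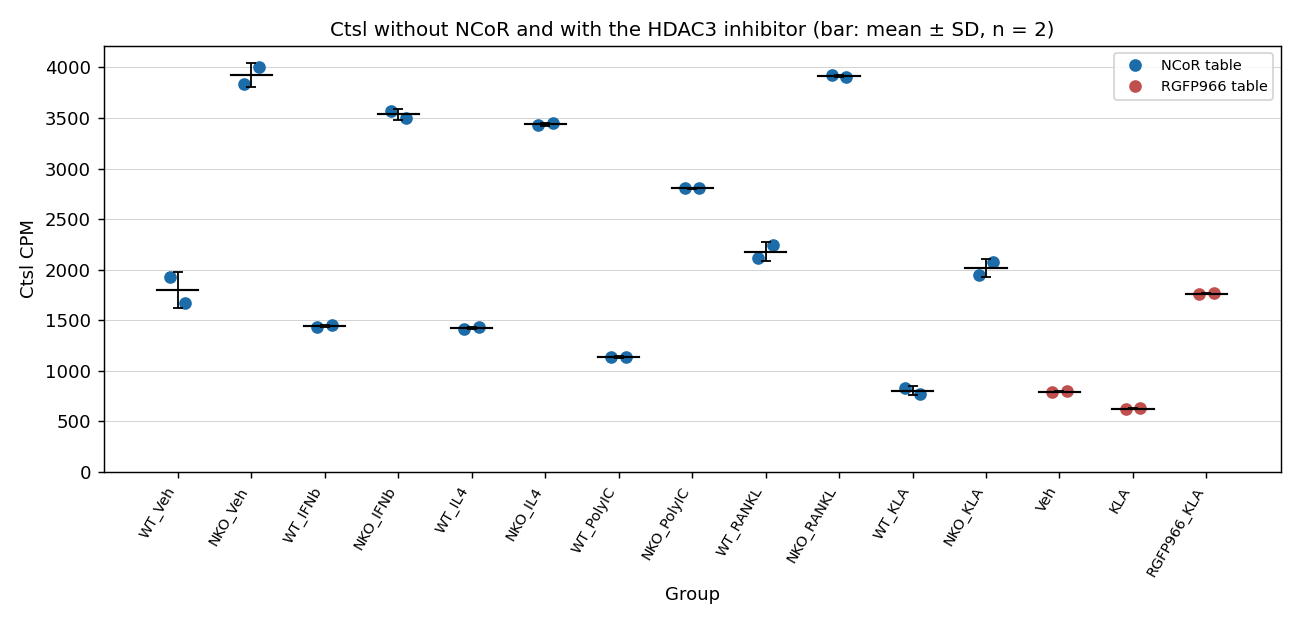
Ctsl CPM in the 12 groups of the NCoR table and the 3 groups of the RGFP966 table, which were scaled separately; points are the 2 libraries and bars the mean ± SD. In each of the 6 conditions the NKO libraries lie above the WT libraries, and RGFP966_KLA lies above KLA and Veh.

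For the remaining members, the only call with vehicle, PolyIC, IFNb or IL4 was Ctsc with vehicle. Smaller differences between NKO and WT also reached an adjusted p below 0.05. With vehicle, 1 member was called higher and 1 lower, beside 2.40% and 3.80% of all genes. The lower call was Ctsc, at 58.6 and 56.7 CPM in NKO_Veh (log2 fold change -1.06 ± 0.23, adjusted p = 0.00524), and it became -0.42 and lost its call without WT_Veh replicate 2. Ctsl was the sole member called with PolyIC, IFNb and IL4, where 3.01%, 1.86% and 1.90% of all genes were called higher. Ctsd and Ctss stayed under the 1.5-fold limit in these 4 conditions but had their 2 NKO libraries above their 2 WT libraries each time, with log2 fold changes of 0.26 to 0.32 for Ctsd and 0.25 to 0.41 for Ctss. Ctsc lay below WT in both libraries with PolyIC (-0.36 ± 0.20), IFNb (-0.26 ± 0.21) and IL4 (-0.51 ± 0.22), with no call. Ctsa showed 0.12 to 0.25 and Ctsb 0.08 to 0.15. Ctsz lay between 0.12 and 0.27, Ctsf between -0.13 and 0.28, Ctsh between -0.31 and 0.06 and Ctse between -1.30 and 0.02.

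With RANKL, the 10 members were all above 0 in NKO against WT, and 5 were called higher, beside 6.21% of all genes. Ctsh went from 172 and 168 to 288 and 262 CPM (log2 fold change 0.69 ± 0.06, adjusted p = 3.34e-15). Ctsd went from 8274 and 8195 to 12710 and 13418 CPM (0.67 ± 0.05, adjusted p = 8.74e-18), and Ctss from 2376 and 2328 to 3685 and 3468 CPM (0.60 ± 0.05, adjusted p = 3.29e-16). These lie just past the limit, and without TMM Ctsd (0.57) and Ctss (0.51) were not called. Ctsc went from 284 and 284 to 413 and 449 CPM (0.60 ± 0.20, adjusted p = 0.0358), a call lost without any 1 of the 4 RANKL libraries (adjusted p 0.0735 to 0.151). The 5 members without a call were Ctsb (0.51), Ctse (0.48), Ctsf (0.26), Ctsa (0.26) and Ctsz (0.17). The median of the members was 0.55, beside 0.0069 over all genes. The granulocyte marker Ctsg, itself a cathepsin gene, stood at 9.90 ± 0.886 CPM in WT_RANKL and 20.9 ± 1.03 CPM in NKO_RANKL (SD, n = 2). Its list of 8 neutrophil and granulocyte precursor genes summed to between 848 and 1129 CPM over the 4 RANKL libraries of both genotypes. Ctsg alone thus does not stand for that list. The 6 macrophage markers summed to between 4161 and 5284 CPM over the same 4 libraries, lowest in WT_RANKL and highest in NKO_RANKL. The part of macrophage share or of other cells in the difference between genotypes was not tested.

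With KLA, 5 members were called higher in NKO and 3 lower, beside 21% and 19% of all genes. Ctsd went from 5723 and 5673 to 9069 and 9698 CPM (log2 fold change 0.72 ± 0.05, adjusted p = 3.19e-20). Ctsz went from 1416 and 1437 to 2480.1 and 2368 CPM (0.76 ± 0.05), Ctsa from 1216 and 1233 to 2036 and 2126 CPM (0.76 ± 0.05), and Ctsc from 1293 and 1308 to 2196 and 2148 CPM (0.74 ± 0.20, adjusted p = 0.00504). Ctsh moved against them, from 171 and 154 to 80.8 and 89.2 CPM (-0.94 ± 0.07, adjusted p = 1.21e-18). Ctsf also fell, from 14.7 and 17 to 7.99 and 7.14 CPM (-1.06 ± 0.17, adjusted p = 1.11e-07). Ctse fell from 10 and 5 counts to 5 and 1 counts (-2.15 ± 0.77, adjusted p = 0.0131), and its call was lost without WT_KLA replicate 1 (-1.58) or NKO_KLA replicate 2 (-1.502). Ctsb (0.51 ± 0.04) and Ctss (-0.05 ± 0.05) were not called. The stromal markers summed to 11.4 and 8.48 CPM in NKO_KLA against 0.819 and 1.33 CPM in WT_KLA, and their part was not tested.

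WT_KLA and NKO_KLA had different date stamps, and genotype and stamp cannot be told apart within the table. NKO_KLA was therefore also set against the KLA groups of the other 3 tables in a joint fit of all 44 libraries, in which it is the shared group of the 4 comparisons. Called members numbered 8 against WT_KLA, 6 against KLA of the RGFP966 table, 4 against Pgc1b_flox_KLA and 6 against DMSO_KLA, beside 39.1%, 42.7%, 34.6% and 38.5% of all genes called in either direction. Ctsl was called higher against each, with log2 fold changes of 1.29 ± 0.05, 1.37 ± 0.05, 0.81 ± 0.05 and 1.05 ± 0.05. Ctsa was called higher against each as well, at 0.73, 0.62, 0.91 and 0.69. Ctsh was lower at -0.97, -1.44, -0.50 and -1.05, not called against Pgc1b_flox_KLA, and Ctsz was higher at 0.73, 0.62, 0.74 and 0.54, not called against DMSO_KLA. Ctsc depended on the control most. Its log2 fold change was 0.71 ± 0.15 against WT_KLA, 0.31 ± 0.15 against KLA (adjusted p = 0.08), 2.08 ± 0.16 against Pgc1b_flox_KLA and 1.02 ± 0.15 against DMSO_KLA. Ctsf was lower against WT_KLA (-1.09), KLA (-0.59, a call that most alternative settings lost) and DMSO_KLA (-1.11), and stood at 0.21 ± 0.20 against Pgc1b_flox_KLA. Ctsd was called higher against WT_KLA (0.69) and KLA (0.64) and stood at 0.30 and 0.40 against the other 2 controls. Ctse was called lower against WT_KLA (-2.18) and DMSO_KLA (-2.15), and Ctsb (0.39 to 0.57) and Ctss (-0.42 to 0.35) against none.

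**Figure D5:**
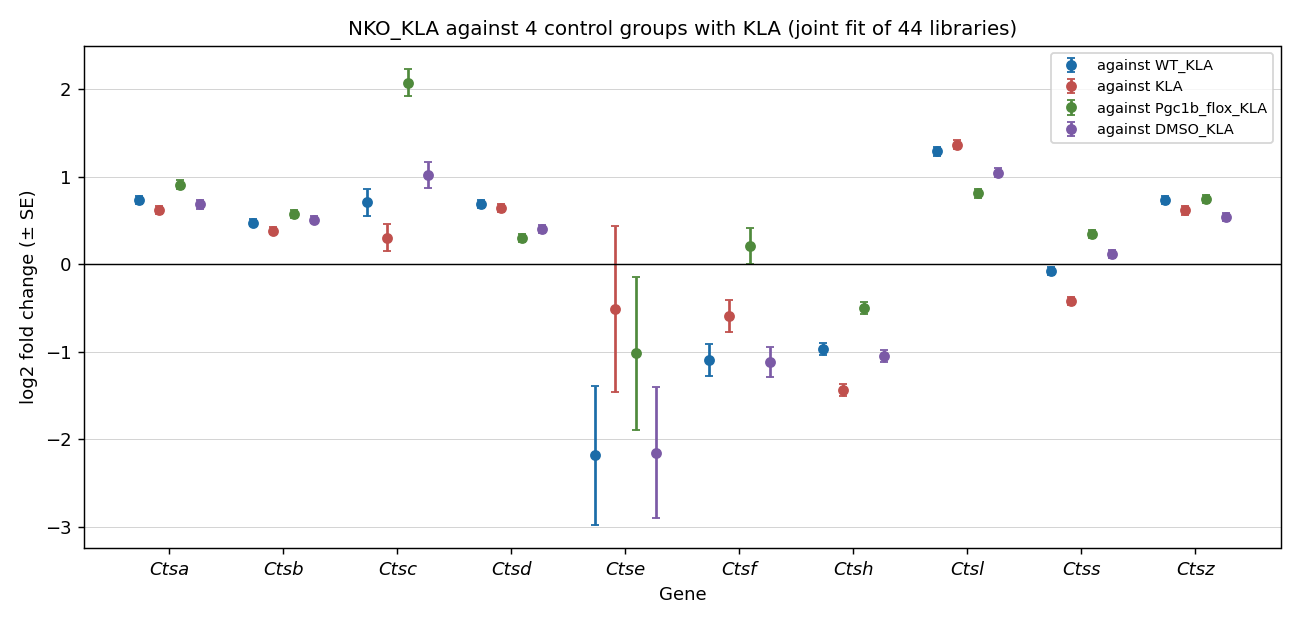
log2 fold change ± SE of the 10 cathepsins in NKO_KLA against each of 4 KLA control groups, from the joint fit of 44 libraries. Ctsl and Ctsa lie above 0 against all 4, Ctsh below 0 against all 4, and Ctsc spreads from 0.31 to 2.08.

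The effect of NCoR loss under each ligand was set against its effect under vehicle as an interaction. With KLA 3 members were called, beside 36.9% of all genes. Ctsc had an effect 1.80 ± 0.30 higher with KLA than with vehicle (adjusted p = 0.000213), and the interactions of Ctsf (-1.25 ± 0.20, adjusted p = 1.94e-07) and Ctsh (-0.89 ± 0.09, adjusted p = 5.79e-13) were negative. Ctsl, higher in NKO in both conditions, differed by 0.20 ± 0.07. Ctse, at -2.18, and Ctsa, Ctsz, Ctsb, Ctsd and Ctss, between -0.30 and 0.51, were not called. With RANKL Ctsc (1.66 ± 0.31, adjusted p = 0.00114) and Ctsh (0.74 ± 0.08, adjusted p = 9.23e-11) were called, beside 14.2% of all genes, so Ctsh differed in opposite directions with the 2 ligands. The Ctsc value with RANKL had an adjusted p of 0.0933 when only the 4 groups of the interaction were fitted. With PolyIC, IFNb and IL4, edgeR and DESeq2 called 0 members, beside 3.24%, 0.604% and 0.604% of all genes, with 5, 2 and 2 members at an unadjusted p below 0.05. Without WT_Veh replicate 1, Ctsc was called in these 3 interactions as well, at 1.13, 1.23 and 0.98.

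Inhibition of HDAC3, begun before KLA treatment, was compared with KLA alone. RGFP966 raised 2 members, Ctsl and Ctsc, beside 15.8% of all genes called higher. Ctsl went from 623 and 628 CPM with KLA to 1763 and 1766 CPM with RGFP966 and KLA, 2.82-fold higher (log2 fold change 1.50 ± 0.05 SE, adjusted p = 3.93e-39) and above the 793 and 797 CPM of vehicle. Ctsc went from 1417 and 1399 to 2559 and 2689 CPM (0.90 ± 0.05, adjusted p = 1.36e-25), the highest level of Ctsc in the series. Ctsa differed by -0.21 ± 0.05, Ctsz by -0.25 ± 0.05, Ctsf by -0.39 ± 0.17, Ctsh by 0.10 ± 0.06 and Ctse by 1.31 ± 0.75, with no call. Ctss differed by 0.29 ± 0.05 and Ctsb by -0.27 ± 0.05, short of the limit, and Ctsd by 0.06 ± 0.05. RGFP966_KLA replicate 2 carried another date stamp than the other 5 libraries, and both calls remained without it. No library had RGFP966 without KLA. Side by side, NKO against WT with KLA gave 1.32 for Ctsl and 0.74 for Ctsc on the log2 scale.

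Inhibition of TBK1, begun before KLA treatment, lowered Ctsc and called no other member, beside 18.3% of all genes called lower. Ctsc went from 1026 and 1031 CPM with DMSO and KLA to 475 and 473 CPM with the inhibitor (log2 fold change -1.12 ± 0.04 SE, adjusted p = 5.28e-177), which is still above the 86.2 and 95.8 CPM of DMSO_Veh. Ctss went from 3178 and 3250 to 2245 and 2214 CPM (-0.53 ± 0.03) and Ctsz from 1604 and 1601 to 1125 and 1144 CPM (-0.50 ± 0.04). Both lay below the 1.5-fold limit although their libraries did not overlap. Ctsd went the other way by 0.15 ± 0.03. Ctsb (-0.29), Ctsa (-0.24), Ctsl (-0.19), Ctsh (-0.10) and Ctsf (-0.00) lay closer to 0, and Ctse stood at -0.77 ± 0.60. The stromal markers summed to 48.7 and 46.2 CPM in DMSO_KLA and to 31.2 and 28.5 CPM in TBK1i_KLA, and their part was not tested. The median of the members was -0.26, beside 0.012 over all genes.

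In libraries labelled Pgc1b flox/flox, LysMCre, Ctsc was again the member that differed with KLA. It stood at 536 and 509 CPM in Pgc1b_flox_KLA and 209 and 214 CPM in Pgc1b_flox_Cre_KLA (log2 fold change -1.31 ± 0.07 SE, adjusted p = 3.16e-17), the 1 member called lower beside 12.9% of all genes. With vehicle the 4 libraries overlapped, at 92.6 and 77.3 CPM without Cre and 82.4 and 87.6 CPM with Cre (0.00 ± 0.08). The interaction was -1.31 ± 0.11 (adjusted p = 2.37e-12), the 1 member called beside 22.8% of all genes. With vehicle, edgeR and DESeq2 called 0 members, beside 0.303% of all genes in either direction, and 5 members had an unadjusted p below 0.05. The farthest of those 5 from 0 was Ctsz at 0.23 ± 0.06. With KLA, Ctsd (0.43 ± 0.05) and Ctsl (0.41 ± 0.06) were higher with Cre but under the limit, which they passed without TMM (0.63 and 0.61). Ctsa, Ctsb, Ctsf, Ctsh, Ctss and Ctsz lay between -0.30 and 0.18, and Ctse stood at 0.91 ± 0.76. Ppargc1b RNA was not lower in these Cre libraries, so the direction of Ctsc is given by the label. The immunoblot of PGC1β protein in the paper is a separate measure that these RNA counts do not test.

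Across the treatments given with KLA, Ctsc therefore covered 209 to 2689 CPM. It was called in each comparison with the KLA control of the same table, higher with NKO and RGFP966 and lower with the TBK1 inhibitor and in the Pgc1b Cre libraries. NKO_KLA and its control WT_KLA differed in date stamp, and the joint fit did not call Ctsc against KLA of the RGFP966 table. The 4 comparisons within a table gave Ctsl 1.32, 1.50, -0.19 and 0.41, with calls in NKO and RGFP966 only. Whether these effects differ between tables was not tested.

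Genes that control cathepsins were followed as lists, whose counts of calls above 0 stand beside the shares of all genes called in the same comparison. Of the other 13 cathepsin genes, 3 passed the filter in the NCoR table, Ctsk, Ctso and Ctsg. Ctsk, the collagenolytic cathepsin of osteoclasts, was called higher in NKO with vehicle (25.1 ± 1.99 to 54.4 ± 0.0899 CPM, log2 fold change 1.11 ± 0.08), PolyIC (1.55 ± 0.11), IFNb (1.19 ± 0.08), IL4 (1.04 ± 0.09) and RANKL (0.91 ± 0.09), and lower with KLA (-0.65 ± 0.12). It was called lower with PolyIC in WT (-0.64 ± 0.11), with KLA in the RGFP966 (-0.86 ± 0.11) and TBK1i (-0.93 ± 0.13) tables and higher in the Pgc1b Cre libraries with KLA (0.85 ± 0.19). Ctso was called in 1 of these comparisons, lower with RANKL in WT (-0.88 ± 0.07). Ctsg gave 161 and 133 counts in WT_RANKL, 239 and 199 in NKO_RANKL, and 0 or 1 counts in each of the other 40 libraries.

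Of 14 endogenous inhibitors, 5 were tested. Cst7, cystatin F, which is known as an inhibitor of Ctsc, had the largest changes of that list with KLA, PolyIC and the TBK1 inhibitor. With KLA it went from 4 and 7 counts in WT_Veh to 561 and 547 in WT_KLA (log2 fold change 7.88 ± 0.18). With PolyIC it rose by 8.31 ± 0.17, and 2 of the 5 were called higher, beside 22.2% of all genes. With the TBK1 inhibitor it went from 537 and 533 counts to 13 and 20 (-5.10 ± 0.18), and 3 were called lower beside 18.3% of all genes. Cst7 was the 1 list gene called with KLA in WT, and the 1 called in the RGFP966 table (7.34 ± 0.14) and Pgc1b flox/flox cells (5.77 ± 0.25), while 2 were called higher in the TBK1i table (Cst7 8.28 ± 0.23). With RANKL in WT 3 were called higher and 2 lower, beside 24.1% and 19.8% of all genes, led by Cst7 (2.77 ± 0.35) and Ctla2b (-0.92 ± 0.11). With IFNb 2 were called higher (Cst7 1.56 ± 0.43), beside 4.09% of all genes. With IL4 1 was called higher and 2 lower, beside 6.63% and 6.46%, led by Cst7 (2.84 ± 0.36) and Ctla2b (-2.01 ± 0.13). In NKO against WT with vehicle 2 were called lower, beside 3.80% of all genes, led by Cst7 (4 and 7 counts in WT_Veh and 1 and 1 in NKO_Veh, -2.39 ± 0.81). Cst7 was also lower in NKO with PolyIC (-1.12 ± 0.08, the 1 call of the list beside 2.92% of all genes), with RGFP966 (-0.73 ± 0.07, where Ctla2a rose by 1.82, beside 9.54% called lower and 15.8% higher) and in the Pgc1b Cre libraries with KLA (-1.56 ± 0.17, where 2 were lower beside 12.9%). In NKO with IL4 the 1 call was Ctla2b (-0.84 ± 0.19, beside 2.33% called lower). In NKO against WT with KLA, 3 of the 5 were higher and 0 lower, beside 21% and 19% of all genes, led by Ctla2a (2.33 ± 0.29), a relative of the cathepsin propeptide. With RANKL 3 were also higher in NKO, beside 6.21%, led by Ctla2b (2.03 ± 0.10). Cst7 was not lower in NKO there, since the NKO effect on it was 3.18 higher with RANKL than with vehicle.

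Of 14 genes for maturation and sorting, all were tested. With KLA in WT, 2 were called higher and 5 lower, beside 25.4% and 32.3% of all genes, led by Gnptab, the phosphotransferase that builds the mannose 6-phosphate tag (1.70 ± 0.06), and Gga2, an adaptor of the receptors that carry it (-2.04 ± 0.11). Sort1, encoding sortilin, was called lower with KLA in the 4 tables (-1.85, -2.67, -1.23 and -2.01) and M6pr, a mannose 6-phosphate receptor, higher (1.68, 1.45, 1.25 and 1.46). The counts with KLA were 3 and 4 in the RGFP966 table, beside 27.9% and 32.2% of all genes. They were 2 and 2 in Pgc1b flox/flox cells (22.8% and 25.7%) and 3 and 5 in the TBK1i table (29.6% and 29.3%). With PolyIC they were 2 and 3, beside 22.2% and 25.0%, led by Gnptab (1.96 ± 0.06) and Gga2 (-1.69 ± 0.10). With RANKL they were 1 and 3, beside 24.1% and 19.8%. These were led by M6pr (1.06 ± 0.05) and Lgmn (-1.27 ± 0.05), the legumain that cleaves cathepsin proforms. With IFNb Sort1 alone was called, lower (-0.66 ± 0.07, beside 2.37% of all genes), and with IL4 edgeR called 0. In NKO against WT with KLA 5 were called higher and 0 lower, beside 21% and 19% of all genes, led by Grn (1.12 ± 0.05), which encodes progranulin, a binding partner of Ctsd. Grn was the farthest fall of that list with the TBK1 inhibitor (-1.26 ± 0.04), where 2 were higher and 3 lower, beside 15.0% and 18.3% of all genes, with Sort1 the farthest rise (1.06 ± 0.09). In NKO against WT with RANKL 2 were higher and 1 lower, beside 6.21% and 6.99%, led by Glb1 (0.85 ± 0.13) and Gga2 (-0.73 ± 0.08). With RGFP966 1 was higher, Sort1 (0.79 ± 0.10), and 2 lower, led by Lgmn (-0.89 ± 0.06), beside 15.8% and 9.54% of all genes. In the Pgc1b Cre libraries with KLA 2 were higher and 1 lower, beside 13.2% and 12.9%, led by Gga2 (1.04 ± 0.12) and M6pr (-0.66 ± 0.06). NKO called 0 of the 14 with vehicle, PolyIC, IFNb or IL4 under edgeR.

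The 4 MiT/TFE factors were split. Tfeb was called lower with KLA in the 4 tables (-2.25 ± 0.09 in WT, from 97.4 ± 0.599 to 20.5 ± 1.66 CPM, and -2.69, -1.84 and -1.66 in the others), and Tfec higher (3.05 ± 0.10 in WT and 2.85, 3.09 and 3.05 in the others). In NKO against WT with KLA Tfec was lower (-1.21 ± 0.09). With RANKL in WT 1 of the 4 was called higher and 3 lower, beside 24.1% and 19.8% of all genes. The higher one was Tfec (1.49 ± 0.11), and the lower ones were led by Tfeb (-1.27 ± 0.07). Tfec was the 1 factor called with PolyIC (2.34 ± 0.11) and IL4 (2.40 ± 0.10), where it was higher, and with IFNb (-1.20 ± 0.15), where it was lower. The shares of all genes called in those directions were 22.2%, 6.63% and 2.37%. In the Pgc1b Cre libraries with KLA Tfec was higher (0.62 ± 0.08) and 2 were lower, led by Tfe3 (-0.68 ± 0.07). The shares of all genes were 13.2% and 12.9%. With RGFP966 2 were higher, led by Tfeb (0.69 ± 0.12), beside 15.8% of all genes. Tfec was higher with the TBK1 inhibitor (1.45 ± 0.05), beside 15.0%. In NKO with vehicle, PolyIC, IFNb, IL4 or RANKL 0 of the 4 were called by edgeR.

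For the 4 members of widest range, the genes most like them over the 12 group means of the NCoR table were listed by Pearson correlation of log2 CPM, as a description of means that share libraries and stamps. For Ctsc these were Kars (0.981), Lrrc58 (0.977) and Ankfy1 (0.976). For Ctsl they were Lat (0.955), Prss46 (0.8997) and Mmp12 (0.893), and for Ctsf Rab11b (0.975), Fam219aos (0.971) and AW549877 (0.963). Ctse, with at most 40 counts a library and its highest values in the RANKL groups, was closest to Rpl41 (0.974), Rpl37rt (0.961) and Spns2 (0.952). Among the members themselves, Ctsb and Ctsd ran closest together (0.912). The most opposed pairs were Ctsa and Ctse (-0.924), Ctse and Ctsz (-0.738), and Ctsc and Ctsd (-0.702).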

How the data were processed

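Poly(A) RNA-seq of mouse BMDMs was analysed in 44 libraries and 22 groups of 2. Per the labels, reads were aligned with STAR to mm10 and counted with HOMER, and the authors deposited whole-number counts over the exons of 1 transcript per gene, not normalized, in 4 tables of 24940 genes. The submitters' processing notes also name DESeq2. Counting took strand into account. Versions are not given in the sources used here, and 0 value columns were left unmapped. The files hold no columns of the authors' own comparisons. Groups came from the labels.

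Each table was fitted over all its groups with edgeR 4.0.16 in R 4.3.3 (filterByExpr, TMM, robust quasi-likelihood F-test, two-sided, Benjamini-Hochberg adjustment over all 13407, 12196, 12205 and 12332 genes tested in the NCoR, RGFP966, Pgc1b and TBK1i tables). Calls needed more than a 1.5-fold difference with an adjusted p under 0.05. NKO_KLA was also compared across tables in a joint fit of 12468 genes. CPM used TMM-scaled library sizes. A level of 3 counts equals 0.179 to 0.360 CPM, and limits of depth cover counting error only. Scripts were tested on simulated data.

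All 10 members are named in the comparisons between groups, and in the interactions those called. Of the 4 related lists, for comparisons between groups within a table, counts are given and the called gene farthest from 0 in each direction, beside genes such as Ctsk, Ctso, Ctsg, M6pr and Sort1 named after their values were seen. The members and lists were chosen with earlier results of these data known. Alternatives were DESeq2 1.42.0, its size factors, TMM without the 20 most abundant genes, no filter, a filter of 5 CPM, the compared groups only, a replicate block, each library left out, and no fold threshold, with library totals without TMM added after seeing the data.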

Additional observations from a re-analysis of the deposited data

Results flagged for a closer look

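For 6 results, the effect of a genotype differed between a ligand and vehicle by the test of that difference itself (edgeR interaction term, log2 scale, adjusted over all genes of the table). Between KLA and vehicle, the NKO effect differed by 1.80 for Ctsc (adjusted p = 0.000213), where it was -1.06 with vehicle and 0.74 with KLA. It differed by -1.25 for Ctsf (adjusted p = 1.94e-07), from 0.19 to -1.06, and by -0.89 for Ctsh (adjusted p = 5.79e-13), from -0.05 to -0.94. WT_KLA and NKO_KLA had different date stamps, so these 3 values cannot be told apart from the stamp.

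Between RANKL and vehicle, the NKO effect differed by 1.66 for Ctsc (adjusted p = 0.00114), from -1.06 to 0.60, and by 0.74 for Ctsh (adjusted p = 9.23e-11), from -0.05 to 0.69. The 4 RANKL libraries also held the neutrophil and stromal markers, whose part was not tested, and differed from vehicle in date stamp and time. In the Pgc1b table the effect of the Cre label on Ctsc differed by -1.31 between KLA and vehicle (adjusted p = 2.37e-12), from 0.00 to -1.31. Without WT_Veh replicate 2 the vehicle effect of NKO on Ctsc was -0.42.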

How the results depend on the processing

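Of 79 calls of a member in a comparison, 57 kept direction and call in every setting run. Calls of members summed to 17 for the ligand responses of WT, 18 for NKO against WT, 10 for KLA in the other tables, 2 for RGFP966, 1 for TBK1i, 1 for Pgc1b Cre against flox, 5 for the NKO interactions, 1 for the Pgc1b interaction and 24 for NKO_KLA against 4 controls. Without the fold threshold these were 36, 38, 22, 6, 7, 6, 16, 6 and 35, since more genes pass by construction. With library totals without TMM, KLA in the other tables gave 23 and Pgc1b Cre against flox 3, and Ctsz reversed to -0.13 (WT_KLA) and -0.18 (RGFP966 table). The cause was not tested. Leaving out 1 library gave 15 to 18, 16 to 18, 9 to 11, 2 to 3, 1 to 1, 1 to 1, 5 to 9, 1 to 1 and 21 to 24 calls, with 9 interactions without WT_Veh replicate 1 and 5 without replicate 2.

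With a replicate block the counts were 17, 18, 10, 2, 1, 1, 5, 1 and 23. Deviations of same-numbered libraries correlated between -0.0596 and 0.0591 over 66 pairs of groups in the NCoR table and at most 0.0501 in the others. No shared deviation was thus seen, which cannot show whether same-numbered libraries share an animal or culture. Without TMM the share of higher calls among all called genes moved from 44% to 20.1% (WT_KLA), 47.0% to 20.3% (PolyIC), 63.3% to 44% (IFNb), 46.4% to 20.4%, 47.1% to 18.5% and 50.2% to 20.8% (KLA in the RGFP966, Pgc1b and TBK1i tables), 45.0% to 73.6% (TBK1i) and 50.6% to 68.2% (Pgc1b Cre with KLA). NKO against WT moved from 47.1% to 33.2% with RANKL, 49.0% to 34.8% with IFNb and 44.9% to 31.2% with IL4, its interactions from 65.9% to 82.7% with PolyIC (55.1% with DESeq2 size factors) and 58% to 47.1% with IL4, the Pgc1b interaction from 50.8% to 72.2%, and NKO_KLA against Pgc1b_flox_KLA from 50.9% to 36.8%. The median of all genes shifted by 0.37 for TBK1i and 0.20 for Pgc1b Cre with KLA.

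Limits: groups hold 2 libraries, Ctse gives at most 40 counts, and the WT_Veh libraries differ 2.11-fold in Ctsc. Calls resting on them are given with and without each library. In the NCoR table, KLA and RANKL against vehicle, and NKO against WT with KLA, run across date stamps, and RANKL against vehicle also across times.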
